A study of Mus musculus with 11 samples.

Results

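The 10 genes described here encode proteins that tie actin filaments to one another. They were chosen by name from the crosslinkers of hair cell stereocilia and of the cells around them, with earlier results of these data known. All 10 were found among the 18667 genes measured, and all 10 were among the 16169 genes tested. The genes *Fscn2*, *Espn*, *Espnl* and *Xirp2* were taken as restricted to hair cells within the cochlea, and *Fscn1*, *Pls1*, *Pls3*, *Lcp1*, *Actn1* and *Actn4* as the broad paralogues. RNA was sequenced from whole cochleae of 2-month-old mice, with 5 libraries from *Atf6*+/+ (wild-type) and 6 from *Atf6*-/- (ATF6 knockout) animals, each from an individual cochlea. The study's methods do not state whether each cochlea came from a different mouse, and all tests here treat the libraries as independent. Both groups were on the C57BL/6J background, which carries the *Cdh23* ahl allele of age-related hearing loss, the knockout is a germline null made by an exon 4 nonsense allele, and mice of both sexes were used in the study. Because every cell of the knockout carries the null allele and the whole organ was taken, the values average over hair cells, supporting cells, neurons, bone and blood. Levels are the authors' FPKM (reads scaled by exon length and library total), a scale that allows levels of different genes to be compared per length.

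A stereocilium is a stiff rod of parallel actin filaments, and its stiffness comes from crosslinkers packed between them: plastins and fascin along the shaft, espins along the shaft and at the base, and XIRP2 as a stabiliser of the core. Supporting cells and the cuticular plate, the actin mesh in which stereocilia are rooted, use other crosslinkers, among them the alpha-actinins. Loss of espin, fascin 2 or plastin 1 is known to shorten, thin or destabilise stereocilia in mice.

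The targeted gene was measured first. *Atf6* stood at 10.4, 9.99, 10.6, 8.39 and 8.25 FPKM in *Atf6*+/+ replicates 1 to 5, and between 3.83 and 4.59 FPKM, with a median of 4.22 FPKM, in *Atf6*-/- cochleae. The groups did not overlap (log2 fold change -1.13, standard error 0.084, limma adjusted p = 5.17e-05). A gene-level FPKM counts reads over all exons, so it does not measure the protein.

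Markers of the labelled tissue were present. All 15 hair cell markers and all 11 supporting cell markers were above 0 in every library, led by *Cib2* at a mean of 78.9 FPKM and *Ceacam16* at 430 FPKM. The hair cell markers summed to 293, 238, 185, 176 and 212 FPKM in *Atf6*+/+ replicates 1 to 5, and to between 205 and 285 FPKM, with a median of 264 FPKM, in *Atf6*-/- cochleae. The highest sum was therefore in *Atf6*+/+ replicate 1 and the lowest sums were in *Atf6*+/+ replicates 3 and 4. Of the 8 markers of the stria vascularis, the epithelium that secretes endolymph, 7 were above 0 in every library, and *Bsnd* was listed at 0 in *Atf6*+/+ replicate 4, where *Kcne1* was 0.10 FPKM.

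Several libraries stood apart in markers of other tissues. The 10 neutrophil markers, led by *S100a9*, summed to 552, 626, 3559, 1432 and 300 FPKM in *Atf6*+/+ replicates 1 to 5, and to between 116 and 1316 FPKM, with a median of 294 FPKM, in *Atf6*-/- cochleae. Replicates 3 and 4 of *Atf6*+/+ and replicate 4 of *Atf6*-/- were the highest. These same *Atf6*+/+ replicates also held the most RNA of *Prph* (13.3 and 41.5 FPKM, against 1.49 to 2.40 FPKM in the other libraries) and *Avil* (4.07 and 15.4 FPKM). *Prph* is in both the neuronal and the somatosensory neuron marker lists used below, and *Avil* is in the latter. Replicate 3 of *Atf6*-/- held most skeletal muscle RNA, with a sum of 52.8 FPKM over 10 markers against 3.37 to 8.60 FPKM elsewhere. In this list *Mylpf* was the most abundant, and *Myh2*, *Tnnc2* and *Myh4* were listed at 0 in 4, 2 and 1 libraries. Within the hair cell list, replicate 5 of *Atf6*-/- was mixed. It held the lowest *Gfi1* of all libraries (1.75 FPKM) and the lowest *Chrna9* (1.60 FPKM) and *Chrna10* (3.76 FPKM) of the *Atf6*-/- libraries, but the highest *Slc26a5* (4.11 FPKM) and *Ocm* (106 FPKM, with 103 FPKM in *Atf6*-/- replicate 1).

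By their mean FPKM, the crosslinkers fell in the order *Actn4* (117.5), *Actn1* (61.6), *Pls3* (35.2), *Fscn1* (30.5), *Lcp1* (15.9), *Espn* (12.5), *Pls1* (8.35), *Fscn2* (5.30), *Espnl* (2.21) and *Xirp2* (0.542). The ranges over libraries were separate for *Actn4* and *Actn1* and for *Actn1* and *Pls3*, and overlapped for each later pair of neighbours. Within single libraries the order was more regular. *Espn* was above *Pls1*, *Pls1* above *Fscn2*, *Fscn2* above *Espnl* and *Espnl* above *Xirp2* in 11 of 11 libraries, *Pls3* above *Fscn1* and *Fscn1* above *Lcp1* in 10 of 11, and *Lcp1* above *Espn* in 8 of 11. The alpha-actinins, taken here as broad, thus stood far above the genes taken as restricted to hair cells in RNA from the whole organ. The study itself counts *Actn4* and *Fscn1* among its stereocilia genes.

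**Figure D1:**
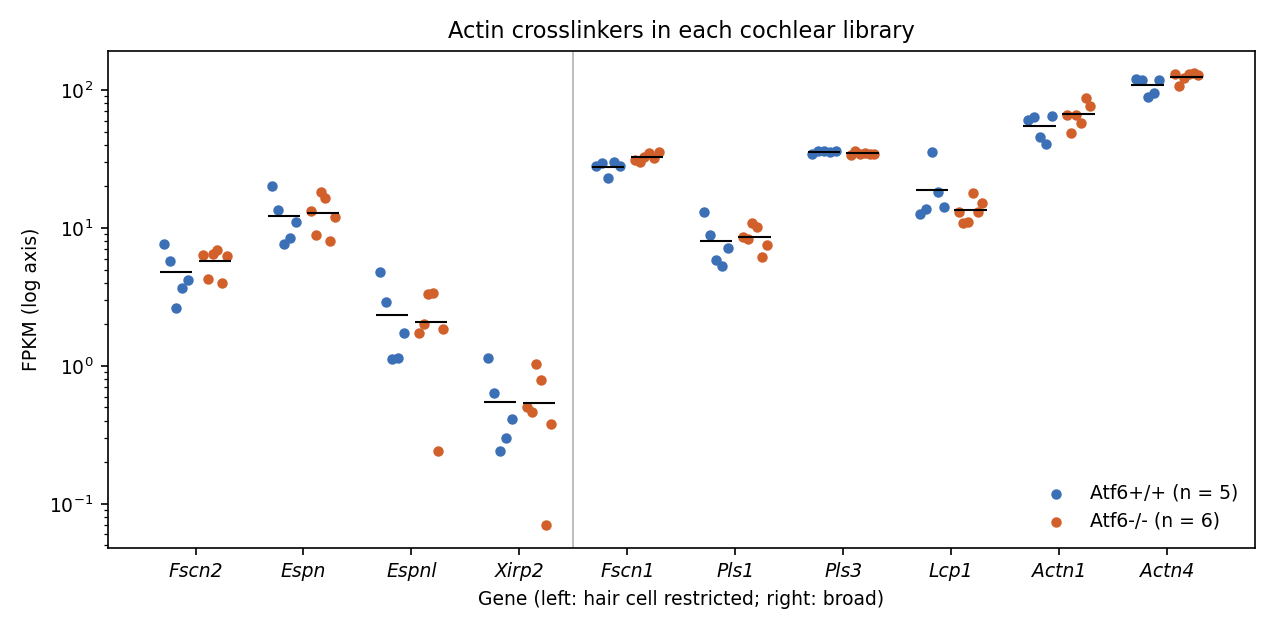
FPKM of each crosslinker (log axis) in every *Atf6*+/+ library (blue, n = 5) and *Atf6*-/- library (orange, n = 6), with black lines at the group means. *Pls3* stayed between 33.6 and 36.3 FPKM in all libraries, whereas *Espnl* ranged from 0.24 to 4.81 FPKM, and *Fscn1* is the one gene whose groups do not overlap.

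None of the 10 crosslinkers passed a limma adjusted p of 0.05, against 11 of 16169 genes (0.0680%). At a looser rule (unadjusted limma p no greater than 0.05, with a log2 fold change beyond 0.05 either way), *Fscn1* and *Actn4* were higher in *Atf6*-/- cochleae, 2 of 10 against 4.48% of the genes tested, and 0 of 10 were lower, against 5.37% of the genes tested. After rescaling to TPM the same 2 genes were higher, but 76.0% of all genes at the rule were higher, in place of 45.5%. Only *Fscn1* had groups that did not overlap with the higher values in *Atf6*-/-, 1 of 10 against 0.643% of genes. The study had already reported *Fscn1* and *Actn4* as changed in these cochleae, and the crosslinkers were chosen with earlier results known. These counts therefore describe the 10 genes and are no test of them as a set. The median log2 fold change of the 10 was 0.12, and that of all genes tested was -0.01. By class, the median was 0.02 for the 4 restricted genes and 0.18 for the 6 broad genes, a difference of -0.16. *Pls1*, itself a plastin of stereocilia, was counted as broad because the classes were fixed beforehand. That difference changed sign when *Atf6*+/+ replicate 1 (0.01) or *Atf6*-/- replicate 5 (0.05) was left out, and grew to -0.44 with a bone marrow score and -0.39 with a hair cell score as a covariate (both described below) and to -0.39 without *Atf6*+/+ replicates 3 and 4. It shrank to -0.07 under a filter at a mean of 1 FPKM, which left *Xirp2* out.

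*Espn* (NCBI gene 56226) encodes espin, the bundling protein that sets the length and width of stereocilia. It measured 20.2, 13.6, 7.62, 8.49 and 10.97 FPKM in *Atf6*+/+ replicates 1 to 5, and between 8.11 and 18.2 FPKM, with a median of 12.6 FPKM, in *Atf6*-/- cochleae. The *Atf6*-/- range lay wholly inside the *Atf6*+/+ range, whose highest and lowest libraries were replicates 1 and 3. On the log2 scale the difference was 0.11 (standard error 0.27, 95% confidence interval -0.47 to 0.68, limma adjusted p = 0.912). Leaving out *Atf6*+/+ replicate 3 (-0.04), *Atf6*+/+ replicate 4 (-0.00071) or *Atf6*-/- replicate 3 (-0.0062) reversed its sign, as did the bone marrow score (-0.25) or the hair cell score (-0.20) as a covariate and leaving out *Atf6*+/+ replicates 3 and 4 together (-0.23). In bulk RNA, fewer hair cells and less of a transcript in each hair cell cannot be told apart.

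*Fscn2* (NCBI gene 238021) encodes fascin 2, which accumulates in stereocilia as they mature. It measured 7.61, 5.77, 2.62, 3.69 and 4.23 FPKM in *Atf6*+/+ replicates 1 to 5, and between 4.02 and 6.89 FPKM, with a median of 6.34 FPKM, in *Atf6*-/- cochleae. Replicate 1 of *Atf6*+/+ was again the highest and replicates 3 and 4 the lowest of all libraries, and the groups overlapped. Its log2 difference between genotypes was 0.32 (standard error 0.24, 95% confidence interval -0.21 to 0.85, limma adjusted p = 0.660). When a bone marrow score (neutrophil, erythroid and B cell marker scores averaged) entered the model as a covariate it was -0.08, and with *Atf6*+/+ replicates 3 and 4 left out together -0.03. It was 0.13 without *Atf6*+/+ replicate 3 alone, and 0.50 without *Atf6*+/+ replicate 1, where *Fscn2* met the unadjusted rule.

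*Espnl* (NCBI gene 227357) encodes the espin-like protein, a relative of espin found in stereocilia. It measured 4.81, 2.93, 1.13, 1.14 and 1.72 FPKM in *Atf6*+/+ replicates 1 to 5, and between 0.24 and 3.38 FPKM, with a median of 1.93 FPKM, in *Atf6*-/- cochleae. The lowest value was that of *Atf6*-/- replicate 5, and the highest library had 20.04 times its level. Between genotypes it differed by -0.25 on the log2 scale (standard error 0.57, 95% confidence interval -1.49 to 0.99, limma adjusted p = 0.901). Without *Atf6*-/- replicate 5 it was 0.23, and without *Atf6*+/+ replicate 1 it was 0.05, so the direction rested on single libraries. With the bone marrow score as a covariate it was -0.62, and without *Atf6*+/+ replicates 3 and 4 together it was -0.76.

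*Xirp2* (NCBI gene 241431) encodes an actin-binding repeat protein known from striated muscle and from stereocilia. It measured 1.14, 0.64, 0.24, 0.30 and 0.41 FPKM in *Atf6*+/+ replicates 1 to 5, and between 0.07 and 1.03 FPKM, with a median of 0.48 FPKM, in *Atf6*-/- cochleae. Again *Atf6*+/+ replicate 1 was the highest and *Atf6*-/- replicate 5 the lowest. Its log2 fold change of -0.07 (standard error 0.46, 95% confidence interval -1.08 to 0.94, limma adjusted p = 0.972) became 0.27 without *Atf6*-/- replicate 5, 0.21 without *Atf6*+/+ replicate 1 and 0.02 without *Atf6*+/+ replicate 2, but -0.51 with the bone marrow score as a covariate and -0.50 without *Atf6*+/+ replicates 3 and 4. At this level the pseudocount of 0.1 FPKM narrows the differences, and how many reads each value rests on is not known.

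The spread between libraries of one genotype set how small a change could be seen. Its residual standard deviation on the log2 scale was 1.09 for *Espnl*, 0.86 for *Xirp2*, 0.51 for *Espn* and 0.46 for *Fscn2*, against a median of 0.15 over all genes tested. Only 1.67% of genes tested varied more than *Espnl*. At the other end, 99.9% varied more than *Pls3*, with a residual standard deviation of 0.03.

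The 4 restricted genes were set against a hair cell score, the mean log2(FPKM + 0.1) of the 15 markers, among which no crosslinker was counted. Over 11 libraries, *Fscn2* followed the score with Pearson's r = 0.956 (permutation p = 2e-05, Benjamini-Hochberg p = 0.00016 over 8 relations) and Spearman's rho = 0.955 (permutation p = 4e-05, adjusted p = 0.00032). Without *Atf6*+/+ replicates 3 and 4, the libraries farthest from the median score, r was 0.963. *Espn* gave r = 0.904 (permutation p = 0.00019, adjusted p = 0.00076) and rho = 0.891 (permutation p = 0.00051, adjusted p = 0.00204), and r = 0.887 without the same libraries. Both therefore moved with the hair cell markers from library to library in either genotype, with r = 0.951 and 0.925 after the genotype means were subtracted.

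*Xirp2* gave r = 0.688 (permutation p = 0.0178, adjusted p = 0.0355) and rho = 0.809 (permutation p = 0.00419, adjusted p = 0.0112), with r = 0.684 without *Atf6*+/+ replicates 3 and 4. *Espnl* gave r = 0.614 (permutation p = 0.0396, adjusted p = 0.0634) and rho = 0.791 (permutation p = 0.00574, adjusted p = 0.0115), with r = 0.625 without those libraries. After the genotype means were subtracted, r was 0.747 and 0.702. In both, 1 library lay far off the line, and the adjusted p of *Xirp2* for r rose above 0.05 when any of *Atf6*-/- replicates 3 and 4 or *Atf6*+/+ replicates 1, 2, 3 and 5 was left out, and after rescaling to TPM (r = 0.629, permutation test, adjusted p = 0.0726). Without *Atf6*-/- replicate 5, r rose to 0.856 for *Xirp2* and 0.873 for *Espnl*. *Xirp2* was also set against the skeletal muscle score, since the gene is known from muscle, and gave r = 0.503 (permutation p = 0.126, adjusted p = 0.144) and rho = 0.555 (permutation p = 0.0827, adjusted p = 0.0998), with r = 0.553 without *Atf6*-/- replicate 3 and *Atf6*+/+ replicate 5 and r = 0.507 after subtraction of the genotype means. In *Atf6*-/- replicate 3, where muscle markers were highest, *Xirp2* was 1.03 FPKM, the highest of the *Atf6*-/- libraries (the next had 0.79 FPKM) and below only *Atf6*+/+ replicate 1 (1.14 FPKM).

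**Figure D2:**
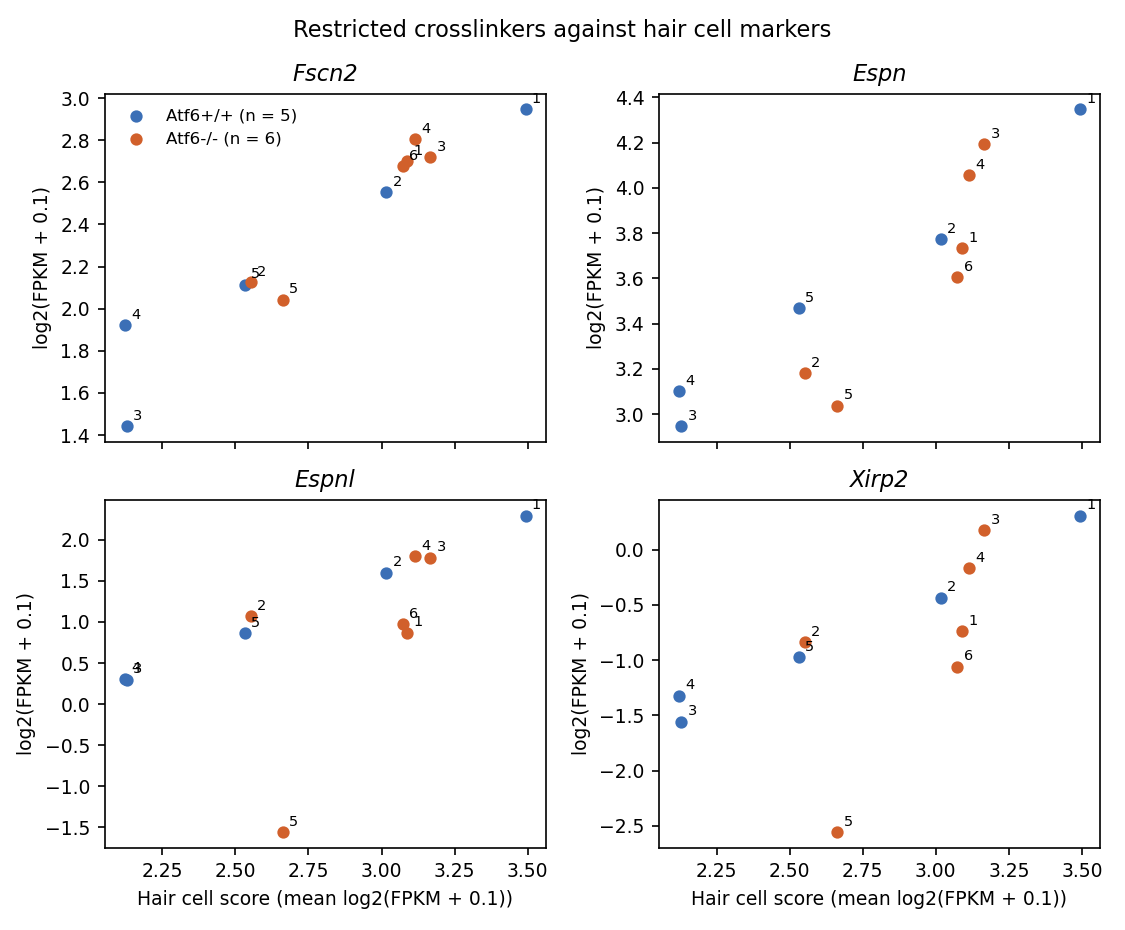
log2(FPKM + 0.1) of *Fscn2*, *Espn*, *Espnl* and *Xirp2* against the hair cell score of the same library, with *Atf6*+/+ libraries in blue (n = 5), *Atf6*-/- libraries in orange (n = 6) and the replicate number beside each point. *Fscn2* and *Espn* follow the score (r = 0.956 and 0.904), whereas *Atf6*-/- replicate 5 lies below the other libraries in *Espnl* (0.24 FPKM) and *Xirp2* (0.07 FPKM).

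The genes most like each crosslinker across libraries were taken from the 13611 genes that averaged 1 FPKM or more, by Pearson's r over 11 libraries after the genotype means were subtracted, as a description with no test. For *Fscn2* they were *Pou4f3*, *Lrrc3c* and *Gipc3* (r = 0.978 for the first), the first-named a transcription factor of hair cells. For *Espn* they were *Cabp2*, *Kcp* and *Minar2* (r = 0.983, 0.978 and 0.976). For *Espnl* they were *Maats1*, *Myo15b* and *Fam166c* (r = 0.996, 0.993 and 0.993). For *Xirp2* they were *Dnaic2*, *Cfap46* and *Cfap206* (r = 0.988, 0.983 and 0.982), which belong to the axoneme, the microtubule core of motile cilia. *Maats1* and *Fam166c*, nearest *Espnl*, are also genes of cilia, and *Espnl* and *Xirp2* were the most alike of all pairs of crosslinkers (r = 0.977). Both had their lowest value in *Atf6*-/- replicate 5, and likeness was not computed without that library. With the hair cell score, *Espnl* and *Xirp2* gave r = 0.9998 and 0.990 within *Atf6*+/+, and 0.599 and 0.646 within *Atf6*-/-.

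A list of 18 axonemal genes was therefore added after these values had been seen, with a median log2 fold change of -0.03. At the unadjusted rule 0 of them were higher and 0 lower, against 4.48% and 5.37% of the genes tested. All 18 were above 0 in every library, and *Foxj1* was the most abundant at a mean of 19.3 FPKM. They summed to 66.1, 52.7, 37.2, 40.4 and 44.2 FPKM in *Atf6*+/+ replicates 1 to 5, and to between 26.0 and 62.8 FPKM, with a median of 45.1 FPKM, in *Atf6*-/- cochleae. The lowest sum was that of *Atf6*-/- replicate 5, where *Tekt1* was 0.67 FPKM against 1.57 to 6.72 FPKM in the other libraries and *Cfap43* was 0.03 FPKM against 0.63 to 2.69 FPKM. Which cells the axonemal RNA came from was not tested.

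Among the broad paralogues, *Fscn1* (NCBI gene 14086) encodes fascin 1, the bundler of filopodia and neuronal growth cones. It measured 28.1, 29.4, 23.0, 30.2 and 28.4 FPKM in *Atf6*+/+ replicates 1 to 5, and between 30.3 and 35.3 FPKM, with a median of 32.5 FPKM, in *Atf6*-/- cochleae. All 6 *Atf6*-/- libraries were above all 5 *Atf6*+/+ libraries. This amounted to a log2 fold change of 0.24 (standard error 0.070, 95% confidence interval 0.09 to 0.39), with an unadjusted limma p of 0.00494 and an adjusted p of 0.374. It lay between 0.17 and 0.27 with each library left out in turn. With the bone marrow score as a covariate it was 0.19 with a larger standard error of 0.095, and it no longer met the unadjusted rule. It was also 0.19 without *Atf6*+/+ replicates 3 and 4, an omission chosen once the values were known, and there it met the rule.

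*Fscn1* was set against a score of 8 neuronal markers, led by *Snap25* at a mean of 1066 FPKM, since neurons are known to express it. It gave r = -0.513 (permutation p = 0.122, adjusted p = 0.144) and rho = -0.545 (permutation p = 0.0873, adjusted p = 0.0998), and r = -0.332 without *Atf6*+/+ replicates 3 and 4. Over all libraries, with the genotype means subtracted, r was -0.243. A fall with neuronal markers was therefore not separable from the spread, although r was -0.797 (adjusted p = 0.0376, permutation test) without *Atf6*+/+ replicate 4. The genes most like *Fscn1* were *Med16*, *Lrrc75a* and *Palm* (r = 0.954, 0.943 and 0.935).

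*Actn4* (NCBI gene 60595) and *Actn1* (NCBI gene 109711) encode the non-muscle alpha-actinins, which crosslink filaments at adhesions and in actin meshes. *Actn4* measured 121, 118, 89.3, 95.4 and 118 FPKM in *Atf6*+/+ replicates 1 to 5, and between 106 and 132 FPKM, with a median of 129 FPKM, in *Atf6*-/- cochleae. Of the 6 *Atf6*-/- libraries, 5 were above the highest *Atf6*+/+ library, and *Atf6*-/- replicate 2 was below it. The difference on the log2 scale was 0.22 (standard error 0.090, 95% confidence interval 0.02 to 0.41), with an unadjusted limma p of 0.0333 and an adjusted p of 0.480. It was 0.05 with the bone marrow score as a covariate, 0.14 with the hair cell score and 0.07 without *Atf6*+/+ replicates 3 and 4, which held the 2 lowest values, and met the unadjusted rule in none of these. Leaving out any 1 of *Atf6*-/- replicates 1, 4, 5 and 6 left it at 0.20 or 0.21 and moved only the p past 0.05, whereas leaving out *Atf6*+/+ replicate 3 or 4 alone gave 0.15 and 0.17, also past it.

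*Actn1* measured 60.6, 64.0, 45.3, 40.8 and 64.7 FPKM in *Atf6*+/+ replicates 1 to 5, and between 48.8 and 88.0 FPKM, with a median of 65.5 FPKM, in *Atf6*-/- cochleae. The lowest values were again those of *Atf6*+/+ replicates 3 and 4, and the highest was that of *Atf6*-/- replicate 5. A log2 fold change of 0.28 was found (standard error 0.16, 95% confidence interval -0.07 to 0.63, limma adjusted p = 0.562), which was 0.07 with the bone marrow score as a covariate, 0.19 with the hair cell score and 0.06 without *Atf6*+/+ replicates 3 and 4. It was 0.18 without *Atf6*+/+ replicate 4 alone, and 0.37 without *Atf6*-/- replicate 2, where *Actn1* met the unadjusted rule. The genes most like *Actn1* were *Ctnnb1*, *Crygn* and *Prob1* (r = 0.985, 0.982 and 0.981), and those most like *Actn4* were *Elmo3*, *Urah* and *Lmo7* (r = 0.978, 0.972 and 0.968). *Ctnnb1*, the catenin of adherens junctions, had a mean of 172 FPKM.

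Markers of blood and marrow leaned lower in *Atf6*-/- cochleae, with none past the adjusted threshold. All 10 neutrophil, all 8 erythroid, all 8 B cell and all 8 leukocyte markers had a negative log2 fold change, with 6, 6, 3 and 4 of them lower at the unadjusted rule. Over all genes tested, 8845 of 16169 were negative and 5.37% were lower at that rule. All 8 osteoblast and all 8 neuronal markers were negative too, with medians of -0.51 and -0.10, and the osteoblast markers summed to 1891 FPKM in *Atf6*+/+ replicate 5 against 192 to 865 FPKM in the other libraries. The erythroid markers, led by *Hba-a1*, summed to between 4826 and 46392 FPKM in *Atf6*+/+ and between 2870 and 9374 FPKM in *Atf6*-/- cochleae. The B cell markers, led by *Cd79a*, summed to between 9.35 and 34.2 FPKM and between 7.31 and 15.2 FPKM, and *Vpreb1* was listed at 0 in 2 libraries. Their part in the higher *Fscn1* and *Actn4* was not tested beyond the covariate. Because these markers lean with genotype, the bone marrow score does too, and a fit with it cannot fully separate marrow content from genotype.

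Among the plastins, *Pls1* (NCBI gene 102502), the main plastin of stereocilia, measured 13.0, 8.95, 5.90, 5.34 and 7.11 FPKM in *Atf6*+/+ replicates 1 to 5, and between 6.18 and 10.8 FPKM, with a median of 8.47 FPKM, in *Atf6*-/- cochleae. As for *Fscn2*, *Atf6*+/+ replicate 1 was the highest and *Atf6*+/+ replicates 3 and 4 were the lowest. Its log2 fold change of 0.14 (standard error 0.21; adjusted p from limma 0.842) became -0.15 with the bone marrow score and -0.09 with the hair cell score as a covariate, and -0.15 without *Atf6*+/+ replicates 3 and 4. With 1 library left out it ranged from 0.01 (without *Atf6*+/+ replicate 4) to 0.33 (without *Atf6*+/+ replicate 1). The genes most like it were *Slc1a3*, *Kncn* and *Cabp2* (r = 0.981, 0.974 and 0.969), the last also among those most like *Espn*. By the same measure, and again with no test, r was 0.929 with *Espn* and -0.305 with *Pls3*.

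*Pls3* (NCBI gene 102866), the plastin of most solid tissues, measured 34.4, 36.0, 36.3, 35.4 and 36.3 FPKM in *Atf6*+/+ replicates 1 to 5, and between 33.6 and 36.1 FPKM, with a median of 34.5 FPKM, in *Atf6*-/- cochleae. The highest library had 1.08 times the lowest, and the groups overlapped. The groups differed by -0.04 on the log2 scale (standard error 0.035, 95% confidence interval -0.12 to 0.03, limma adjusted p = 0.693), and 0.02 after rescaling to TPM, so neither direction can be read from it. *Pls3* is also known from bone, and against a score of 8 osteoblast markers, led by *Bglap*, it gave r = 0.366 (permutation p = 0.265, adjusted p = 0.265) and rho = 0.405 (permutation p = 0.215, adjusted p = 0.215), with r = 0.414 without *Atf6*+/+ replicate 5 and *Atf6*-/- replicate 2. With 1 library left out r ranged from 0.153 to 0.584. With the genotype means subtracted r was 0.245, and after rescaling to TPM the sign reversed (r = -0.469). Its nearest genes were *Alox12*, *Ppp1r16b* and *Impdh2* (r = 0.850, 0.834 and 0.821), the weakest likeness among the 10 crosslinkers.

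*Lcp1* (NCBI gene 18826), the plastin of leukocytes, measured 12.6, 13.8, 35.4, 18.3 and 14.1 FPKM in *Atf6*+/+ replicates 1 to 5, and between 10.8 and 18.03 FPKM, with a median of 13.1 FPKM, in *Atf6*-/- cochleae. Replicate 3 of *Atf6*+/+, with the most neutrophil RNA, stood far above the rest. Its log2 fold change was -0.38 (standard error 0.24; adjusted p from limma 0.587), -0.13 when *Atf6*+/+ replicate 3 was left out and 0.17 when the bone marrow score was a covariate. Against a score of 8 leukocyte markers, led by *Arhgdib*, it gave r = 0.866 (permutation p = 0.00155, adjusted p = 0.00413) and rho = 0.691 (permutation p = 0.0225, adjusted p = 0.0361). Without *Atf6*+/+ replicate 3, r was 0.683 (permutation test, adjusted p = 0.0751), and without *Atf6*+/+ replicates 3 and 4 it was 0.532, so the relation rested largely on those libraries. Over all libraries, r was 0.838 with the genotype means subtracted. The leukocyte markers summed to 86.9, 105, 296, 177 and 121 FPKM in *Atf6*+/+ replicates 1 to 5, and to between 58.0 and 170 FPKM in *Atf6*-/- cochleae. The genes most like *Lcp1* were *Ubp1*, *Mxd1* and *Csf2rb* (r = 0.951, 0.950 and 0.946).

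Ratios of paralogues within a library do not depend on the scaling between libraries, and 5 were compared by exact permutation of the genotype labels (two-sided, smallest possible p of 0.00216). Fascin 2 RNA was between 11.4% and 27.1% of fascin 1 RNA. The *Fscn2* to *Fscn1* ratio differed by 0.08 on the log2 scale between *Atf6*-/- and *Atf6*+/+ (exact permutation p = 0.753, Benjamini-Hochberg p = 0.753), and by -0.05 without *Atf6*+/+ replicate 3 and -0.02 without *Atf6*+/+ replicate 4. *Pls1* was between 15.1% and 37.9% of *Pls3*, with a log2 difference of 0.18 (exact permutation p = 0.470, adjusted p = 0.725), which was 0.06 without *Atf6*+/+ replicate 4, 0.08 without *Atf6*+/+ replicate 3 and 0.39 without *Atf6*+/+ replicate 1. *Lcp1* reached 97.5% of *Pls3* in *Atf6*+/+ replicate 3 and was between 30.1% and 51.6% of it in the other libraries, with a log2 difference of -0.34 (exact permutation p = 0.264, adjusted p = 0.725) that shrank to -0.09 without that library. *Actn4* was between 1.501 and 2.34 times *Actn1*, with a log2 difference of -0.07 (exact permutation p = 0.569, adjusted p = 0.725) that ranged from -0.12 to -0.0014 with 1 library left out. None of the 5 ratios passed an adjusted p of 0.05.

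The ratio of *Espnl* to *Espn* showed 1 library of its own kind. *Espnl* was 23.8%, 21.6%, 14.8%, 13.4% and 15.7% of *Espn* in *Atf6*+/+ replicates 1 to 5, and between 2.96% and 22.3%, with a median of 16.9%, in *Atf6*-/- cochleae. The 2.96% was that of *Atf6*-/- replicate 5, whose *Espn* of 8.11 FPKM was within the range of the *Atf6*+/+ group while its *Espnl* was not. The log2 difference between genotypes was -0.36 (exact permutation p = 0.580, adjusted p = 0.725), and 0.00026 without that library.

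**Figure D3:**
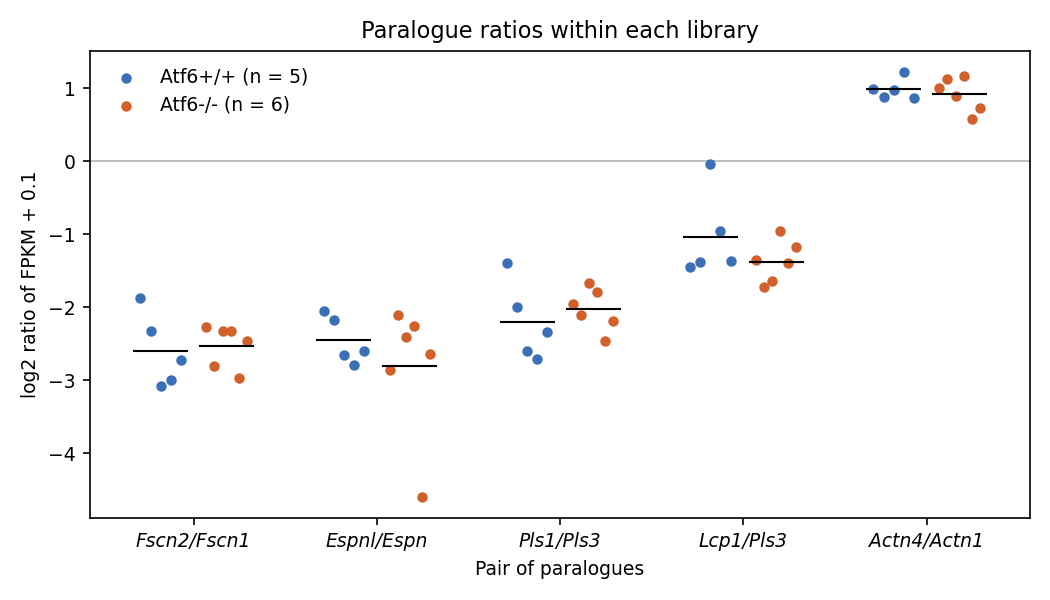
log2 ratio of FPKM + 0.1 for 5 pairs of paralogues within each *Atf6*+/+ (blue, n = 5) and *Atf6*-/- (orange, n = 6) library, with black lines at the group means. The groups overlap in every pair, and the lowest *Espnl* to *Espn* ratio (-4.59) is that of *Atf6*-/- replicate 5.

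Of the other genes of these families, *Fscn3*, known from testis, had means of 0.040 FPKM (*Atf6*+/+) and 0.037 FPKM (*Atf6*-/-), too low to be tested. Of the muscle alpha-actinins, *Actn2* had a mean of 4.24 FPKM and *Actn3* of 0.342 FPKM, and *Xirp1*, the relative of *Xirp2* from striated muscle, of 0.301 FPKM. *Actn3* was highest, at 0.77 FPKM, in *Atf6*-/- replicate 3, the library with the most muscle RNA, but *Xirp1* was lowest there (0.21 FPKM). *Actn2* was 3.93 FPKM in that library, within its range of 3.42 to 5.24 FPKM. Among these genes, 0 of the 3 tested met the unadjusted rule, at which 4.48% of all genes tested were higher and 5.37% lower.

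Other crosslinkers, 16 in all, had a median log2 fold change of -0.03, and 1 was lower at the unadjusted rule while 0 were higher, against 5.37% and 4.48% of the genes tested. The most abundant was *Sptan1*, the alpha-spectrin of cortical actin, at a mean of 184 FPKM. The lower gene was *Avil*, the advillin of sensory neurons, with means of 4.74 ± 6.04 FPKM in *Atf6*+/+ (SD, n = 5) and 1.19 ± 0.27 FPKM in *Atf6*-/- (SD, n = 6) and a log2 fold change of -1.22. The standard error was 0.53 and the limma adjusted p was 0.493. Its highest value was 15.4 FPKM in *Atf6*+/+ replicate 4, in which *Prph* was highest too, and the next was 4.07 FPKM in *Atf6*+/+ replicate 3. The 8 somatosensory neuron markers, a list added after the values were seen, summed to between 12.9 and 169 FPKM in *Atf6*+/+ and between 9.35 and 19.7 FPKM in *Atf6*-/- cochleae, led by *Tac1*, with *Mrgprd* listed at 0 in 9 libraries and *Scn10a* in 2. All 8 had a negative log2 fold change (median -1.16). At the unadjusted rule 3 were lower, *Avil*, *Tac1* and *P2rx3*, and 0 higher, against 5.37% and 4.48% of the genes tested, with none past the adjusted threshold. These counts are no test, because the list was chosen after the values were seen and holds *Avil* itself. The sums were 45.3 and 169 FPKM in *Atf6*+/+ replicates 3 and 4 and at most 21.2 FPKM in any other library.

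Actin itself and the genes of filament turnover, 22 in all, had a median log2 fold change of -0.06. *Actg1* was the most abundant, with means of 764 ± 23.6 FPKM in *Atf6*+/+ (SD, n = 5) and 750 ± 20.3 FPKM in *Atf6*-/- (SD, n = 6), and its log2 fold change of -0.03 did not pass (limma adjusted p = 0.885). At the unadjusted rule 1 gene was higher and 5 of 22 were lower, against 4.48% and 5.37% of the genes tested, and none passed the adjusted threshold. The higher gene, *Eps8*, encodes a capping and bundling protein of stereocilium tips and differed by 0.30 on the log2 scale, with a limma adjusted p of 0.505. The lower genes were *Pfn2*, *Capza2*, *Tmsb4x*, *Tpm2* and *Diaph3*, with log2 fold changes of -0.19, -0.13, -0.31, -0.43 and -0.44. Profilin 2 and thymosin beta 4 bind actin monomers, *Capza2* encodes a subunit that caps filaments, *Tpm2* a tropomyosin and *Diaph3* a formin. Some of them were high in only part of the *Atf6*+/+ libraries: *Tmsb4x* was 737, 692 and 683 FPKM in *Atf6*+/+ replicates 3 to 5 and at most 554 FPKM elsewhere, *Tpm2* was highest in *Atf6*+/+ replicates 4 and 5 (12.5 and 15.5 FPKM) and *Diaph3* in *Atf6*+/+ replicate 3 (1.25 FPKM).

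Membrane anchors and proteins of the stereocilium base, 14 in all, had a median log2 fold change of 0.14, and 1 was higher at the unadjusted rule while 0 were lower, against 4.48% and 5.37% over all genes. This gene was *Tprn*, which encodes taperin of the stereocilium base. Its means were 9.98 ± 1.60 FPKM in *Atf6*+/+ (SD, n = 5) and 11.6 ± 0.69 FPKM in *Atf6*-/- (SD, n = 6). With a limma adjusted p of 0.481, the log2 fold change of 0.23 did not pass. The most abundant gene was *Slc9a3r2*, also named *Nherf2*, at a mean of 66.0 FPKM.

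Cell type markers other than those above gave the following counts at the unadjusted rule, at which 4.48% of all genes tested were higher and 5.37% lower. Of 15 hair cell markers, 2 were higher, *Slc26a5* and *Ocm*, and of 11 supporting cell markers, 3 were higher, *Fgfr3*, *Epyc* and *Ceacam16*, with 0 lower in both lists. Of the Schwann cell, stria vascularis and fibrocyte lists, 2 of 6, 1 of 8 and 1 of 5 were higher, and of 8 neuronal markers 2 were lower. None of the 8 macrophage, 8 osteoblast, 6 endothelial, 6 smooth muscle or 9 tested skeletal muscle markers met the rule. The hair cell list had a median log2 fold change of 0.23, against 0.02 for the 4 restricted crosslinkers. With the hair cell score as a covariate, *Fscn2*, *Espn*, *Espnl* and *Xirp2* differed by 0.03, -0.20, -0.74 and -0.48 on the log2 scale, with limma adjusted p of 0.955, 0.733, 0.737 and 0.774.

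Promoters of all 10 crosslinkers were found in the RefSeq sequences of the mouse build GRCm38.p6, each with 250 bases before and 50 bases after a gene start, and were searched on both strands among 14639 genes of the data. The ER stress response element, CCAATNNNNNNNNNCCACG, through which ATF6 is known to act, was in 0 of 10 crosslinkers and in 0.171% of genes. Its second part, CCACG, was in 8 of 10, all but *Lcp1* and *Xirp2*, and in 45.9% of genes. The sequence TGACGTGG was in 0 of 10 and 0.929% of genes, and the cyclic AMP response element, TGACGTCA, was in *Fscn1* alone among the 10 and in 2.91% of genes. A match is a description of letters, not a site. The promoters of the genes that met the unadjusted rule are shown, with that of *Fscn2* beside its paralogue *Fscn1*, in lower case with CCACG (or CGTGG, its complement) and TGACGTCA in capitals. *Fscn1* lies at chr5:142960105-142960404 on the plus strand, *Fscn2* at chr11:120361284-120361583 on the plus strand and *Actn4* at chr7:28962283-28962582 on the minus strand.
Fscn1: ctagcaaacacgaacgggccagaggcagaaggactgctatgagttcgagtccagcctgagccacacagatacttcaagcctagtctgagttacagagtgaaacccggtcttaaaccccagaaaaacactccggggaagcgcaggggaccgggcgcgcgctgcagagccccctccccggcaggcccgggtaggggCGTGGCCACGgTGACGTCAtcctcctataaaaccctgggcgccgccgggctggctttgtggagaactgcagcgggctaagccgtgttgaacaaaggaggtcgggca
Fscn2: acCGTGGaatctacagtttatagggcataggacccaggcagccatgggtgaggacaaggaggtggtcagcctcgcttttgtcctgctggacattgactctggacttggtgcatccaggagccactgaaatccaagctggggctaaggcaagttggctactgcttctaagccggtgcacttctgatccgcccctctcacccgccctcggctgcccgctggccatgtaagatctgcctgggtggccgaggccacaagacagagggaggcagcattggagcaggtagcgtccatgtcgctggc
Actn4: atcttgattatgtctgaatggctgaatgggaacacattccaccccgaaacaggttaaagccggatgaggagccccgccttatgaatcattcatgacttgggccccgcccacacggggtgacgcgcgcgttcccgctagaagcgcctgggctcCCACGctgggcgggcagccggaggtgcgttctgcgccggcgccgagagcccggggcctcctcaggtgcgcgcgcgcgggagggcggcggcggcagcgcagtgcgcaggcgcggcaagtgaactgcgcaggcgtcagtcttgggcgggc
In *Fscn1* the matches stand close together, in *Fscn2* the only match lies at the upstream end, and in *Actn4* the only match lies near the middle.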

How the data were processed

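FPKM values were computed by the authors and deposited with 2 decimals, 1 column per library. Per the labels and the study's methods, stranded mRNA libraries were aligned to GRCm39 with HISAT2 2.0.4, and expression was estimated with RSEM (1.2.12 in the submitters' processing notes, while the study's methods name another version). The files hold no read counts, and the study's methods give 1 sequencing depth for all samples, so neither the depth of single libraries nor the error from counting is known. Tables were joined by gene identifier, 0.1 was added before the log2 transformation, and genes averaging 0.1 FPKM or more entered a linear model in limma 3.58.1, run in R 4.3.3 with its trend option, genotype as the only term and Benjamini-Hochberg adjustment over 16169 genes. Fold changes are on the log2(FPKM + 0.1) scale, which understates those of low genes. Ratios were compared by exact permutation, and relations with 100000 permutations (numpy 2.4.6), all two-sided. Named genes are all crosslinkers, *Atf6*, the genes of each list at the unadjusted rule or most abundant in it, and the 3 genes most like each crosslinker; single marker genes and axonemal genes given by library were named after their values were seen, as were the axoneme and somatosensory neuron lists. The crosslinkers and lists were chosen with earlier results of these data known. The model was tested on simulated data. Alternatives were other pseudocounts, filters and scalings, a replicate block, robust variance, marker scores as covariates and leaving out each library.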

Additional observations from a re-analysis of the deposited data

Results flagged for a closer look

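Values were looked at for 1 library far from the others of its genotype in 66 groups (each crosslinker, *Atf6*, each ratio and each marker score in each genotype), and 5 were found, where 3.3 were expected by chance. *Lcp1* was 35.4 FPKM in *Atf6*+/+ replicate 3, and the next library had 18.3 FPKM. The *Espnl* to *Espn* log2 ratio was -4.59 in *Atf6*-/- replicate 5, and the next was -2.86. The skeletal muscle score was 1.95 in *Atf6*-/- replicate 3, and the next was -1.28. The macrophage score was 3.43 in *Atf6*-/- replicate 5, and the next was 3.91. The stria vascularis score was 2.03 in *Atf6*+/+ replicate 4, and the next was 4.01. The causes were not tested.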

How the results depend on the processing

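Of 524 values recomputed under alternatives, no crosslinker's fold change passed an adjusted p of 0.05 under any of them. Under the bone marrow covariate, *Fscn2*, *Espn*, *Pls1* and *Lcp1* had log2 fold changes of -0.0840, -0.252, -0.147 and 0.167, with 6 genes called (11 in the reported fit), 833 at the unadjusted rule (1592 in the reported fit) and 0 of the crosslinkers among them (2 in the reported fit). Under the hair cell covariate, *Espn* and *Pls1* had -0.196 and -0.0911, with 1200 genes and 1 crosslinker at the rule. Without *Atf6*+/+ replicates 3 and 4, added after seeing the data, *Fscn2*, *Espn* and *Pls1* had -0.0261, -0.229 and -0.152, with 1001 genes and 1 crosslinker at the rule. The added axoneme covariate gave *Xirp2* 0.0376 and *Espnl* -0.117 (from -0.251, with a standard error of 0.111 in place of 0.568), but its list was chosen after the genes nearest *Xirp2* were seen and holds *Dnaic2*, the nearest, so that score was not independent of *Xirp2* or of *Espnl*, which varied with it. Rescaling to TPM gave *Pls3* 0.0154, r = -0.469 for *Pls3* with the osteoblast score and r = 0.629 (adjusted p = 0.0726, permutation) for *Xirp2* with the hair cell score, and moved the share of higher genes at the rule from 45.5% to 76.0%. A filter at a mean of 1 FPKM left *Xirp2* out.

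Same-numbered libraries did not deviate together (correlations of deviations across genes from -0.21 to 0.12, and 1 of 5 *Atf6*+/+ libraries correlated best with its own number), so numbers were not used as pairs. With the replicate block, in which *Atf6*-/- replicate 6 had no partner, 4 genes were called and 1 crosslinker, *Fscn1*, met the unadjusted rule, as did 6.67% of the genes tested.

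Leaving out each library in turn, log2 fold changes ranged from -0.0392 to 0.310 for *Espn*, -0.45 to 0.23 for *Espnl*, -0.28 to 0.27 for *Xirp2*, 0.13 to 0.50 for *Fscn2*, 0.01 to 0.33 for *Pls1* and 0.18 to 0.37 for *Actn1*. Crosslinkers at the unadjusted rule numbered 1 to 3, the third being *Fscn2* without *Atf6*+/+ replicate 1 or *Actn1* without *Atf6*-/- replicate 2. The share of all genes at that rule ranged from 7.40% to 11.5%, and was 11.5% and 11.1% without those libraries, respectively. Crosslinkers with separate groups numbered 1 to 2, the second being *Actn4* without *Atf6*-/- replicate 2. In the reported fit 0.643% of genes had separate groups with the higher values in *Atf6*-/-. The *Fscn2* to *Fscn1* difference ranged from -0.0458 to 0.258 and *Espnl* to *Espn* from -0.50 to 0.00026. The r with the hair cell score ranged from 0.507 to 0.873 for *Espnl* and from 0.594 to 0.856 for *Xirp2*, that of *Lcp1* with leukocytes from 0.683 to 0.920 and that of *Fscn1* with neurons from -0.797 to -0.228. The cause of these shifts was not tested. The depth of each library is not in the files, so low values such as those of *Xirp2* carry an unmeasured counting error. In RNA of the whole organ, a change of a broad gene limited to hair cells would be diluted. Markers of blood and marrow leaned lower in *Atf6*-/- cochleae with none past the adjusted threshold. Their part in the other values was not tested beyond the covariate, which itself leans with genotype. Transcripts were measured, not proteins or isoforms. The confidence intervals of *Espnl* (-1.49 to 0.99) and *Xirp2* (-1.08 to 0.94) are wide, so the absence of a call does not show equal levels.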
